A study of Mus musculus with 32 samples.

Results

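*Id1*, *Id2*, *Id3* and *Id4*, the 4 Id genes of the mouse, were followed through all 11 conditions of an RNA-sequencing series of embryonic stem cells (ESCs), by taking the rows of the gene count table that carry these symbols: 4 of the 51826 genes counted. The cells were RGd2, a line with a destabilized GFP reporter at *Rex1*, and mutants made in it with CRISPR/Cas9 and guide RNAs against different exons. RGd2 was sampled in 2i (the GSK3 inhibitor CHIR99021 with the MEK inhibitor PD0325901), in 2i kept for 5 passages (2ip5), in the GSK3 inhibitor alone for 2 passages (CHp2), and 16 h and 72 h after transfer to N2B27 medium without inhibitors (N16h and N72h). *Rbpj*-KO and *Etv5*-KO cells were sampled in 2i and at N16h, *Etv5*/*Rbpj* double knockouts (ER-dKO) in the GSK3 inhibitor alone at passage 5, and *Etv5*/*Rbpj*/*Tcf3* triple knockouts (ETR-tKO) without inhibitors at passage 5. The "*Tcf3*" deleted in the triple mutant is the gene with the symbol *Tcf7l1*. The symbol *Tcf3* belongs to the E protein E2A below. Each condition had 3 libraries except *Etv5*-KO at N16h, with 2. In each RGd2 group 1 library came from a clonal derivative and the others from the parental line. Mutant libraries came from separate clones, 3 of *Rbpj*-KO (the same at both times), 3 of *Etv5*-KO (of which 2 were sampled at N16h) and 3 each of ER-dKO and ETR-tKO, 2 of the latter from one *Tcf7l1* mutant parent. RGd2, *Rbpj*-KO and *Etv5*-KO cells of the 2i and N16h groups had been grown in the GSK3 inhibitor with LIF before a short period in 2i. Each p-value rests on 1 estimate of the spread per gene, shared by all 11 conditions. It mixes the spread between mutant clones with that between RGd2 cultures of the parental line and its clonal derivative.

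Id proteins are helix-loop-helix proteins without the basic region that contacts DNA. They pair with E proteins, the common partners of tissue-specific basic helix-loop-helix (bHLH) factors, and the pairs cannot bind the E-box. Id genes are classical targets of BMP signalling through SMAD1, SMAD5 and SMAD4, and in mouse ESCs they are known for supporting self-renewal downstream of BMP. RBPJ is the DNA-binding partner of the Notch intracellular domain and a repressor where Notch is not active, and ETV5 is an ETS factor induced by FGF-ERK signalling.

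All 4 genes are in GRCm38/mm10. *Id1* (ENSMUSG00000042745.9) lies on the plus strand of chromosome 2 at 152736251 to 152737410, *Id2* (ENSMUSG00000020644.9) on the minus strand of chromosome 12 at 25093799 to 25097140, *Id3* (ENSMUSG00000007872.3) on the plus strand of chromosome 4 at 136143497 to 136145755, and *Id4* (ENSMUSG00000021379.1) on the plus strand of chromosome 13 at 48261427 to 48264036. RefSeq promoter windows, from 250 bases before to 50 after the start (GRCm38.p6), matched 3 of the 4 genes. They are shown because *Id3* and *Id4* were higher in *Rbpj*-KO cells than in RGd2, in 2i and at N16h, and *Id2* was not. Both strands were searched for the RBPJ core TGGGAA, the BMP-SMAD element GGCGCC, the SMAD box GTCTG, the ETS core CCGGAA and the E-box CANNTG. The window of *Id4* held the RBPJ core once, 245 bases before the start and on the opposite strand, and the BMP-SMAD element once, 148 bases before it. The window of *Id2* held the BMP-SMAD element at 231 bases and an E-box at 196 bases before the start, and that of *Id3*, which lies within the first exon of its longest Gencode transcript, held the SMAD box at 167 and at 68 bases before it. The letters CCGGAA were in none of the 3 windows. Of all 32851 windows in the reference, 25.6% hold the RBPJ core, 11.9% the BMP-SMAD element, 49.6% the SMAD box, 14.9% the ETS core and 72.3% an E-box, so a match describes the letters and no more. The matches are printed 5′ to 3′ along the gene, with the motif in capitals, which is the reverse complement for a match on the opposite strand.
Id4 RBPJ core, chr13:48260866-48260888, plus strand: tgcccTTCCCAttggcccgagcg
Id4 BMP-SMAD element, chr13:48260956-48260985, plus strand: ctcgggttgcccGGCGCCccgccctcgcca
Id2 BMP-SMAD element, chr12:25096306-25096335, minus strand: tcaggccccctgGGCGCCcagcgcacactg
Id3 upstream SMAD box, chr4:136143643-136143671, plus strand: tgtcctcggcgtCAGACcagcctaaggaa
Id3 downstream SMAD box, chr4:136143742-136143770, plus strand: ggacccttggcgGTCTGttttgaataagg

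Libraries held between 5986857 and 71439411 counts on genes (median 29940141), the fewest in a clonal RGd2 library in 2i. In each mutant group the targeted genes were lower than in RGd2, by log2 fold changes from -0.55 for *Rbpj* in ETR-tKO to -2.79 for *Etv5* in *Etv5*-KO in 2i, so transcripts of the edited genes were still counted. All 6 pluripotency markers (*Pou5f1*, *Sox2*, *Nanog*, *Zfp42*, *Utf1* and *Tdgf1*) had a mean of at least 1 FPKM in all 11 conditions, with summed levels from 627 FPKM at N72h to 1567 FPKM in *Etv5*-KO at N16h. Those of 6 fibroblast markers, a sign of feeder cells, summed to between 0.765 and 7.34 FPKM, and *Postn* or *Twist2* was at 0 in several conditions. The highest sums, 6.32 to 7.34 FPKM, were at N72h, where 1 of the 6 markers had a mean of at least 1 FPKM. Against N16h, 1 was called higher there and none lower, by the rule given below.

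Levels of different Id genes were compared as FPKM (counts per kilobase of counted gene length, scaled to the library total), and conditions within a gene as normalised counts, scaled by the ERCC spike-ins. *Id3* was the leading Id transcript in most conditions and *Id2* the scarcest in most. In RGd2 in 2i, *Id4* took 46.2% of the summed Id FPKM and *Id3* 41.8%, with *Id1* at 6.88% and *Id2* at 5.04% (mean of 3 libraries). After 5 passages in 2i the *Id4* share was 73.4%, and at N16h it was 2.49%. The summed level was 3.57 ± 0.336 FPKM at N72h (SD, n = 3), the lowest of the 11 conditions, and 69.8 ± 2.00 in ER-dKO and 67.7 ± 8.07 in ETR-tKO (SD, n = 3 each), the highest. *Id2* reached its largest share, 25.5%, in *Etv5*-KO in 2i.

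**Figure D1:**
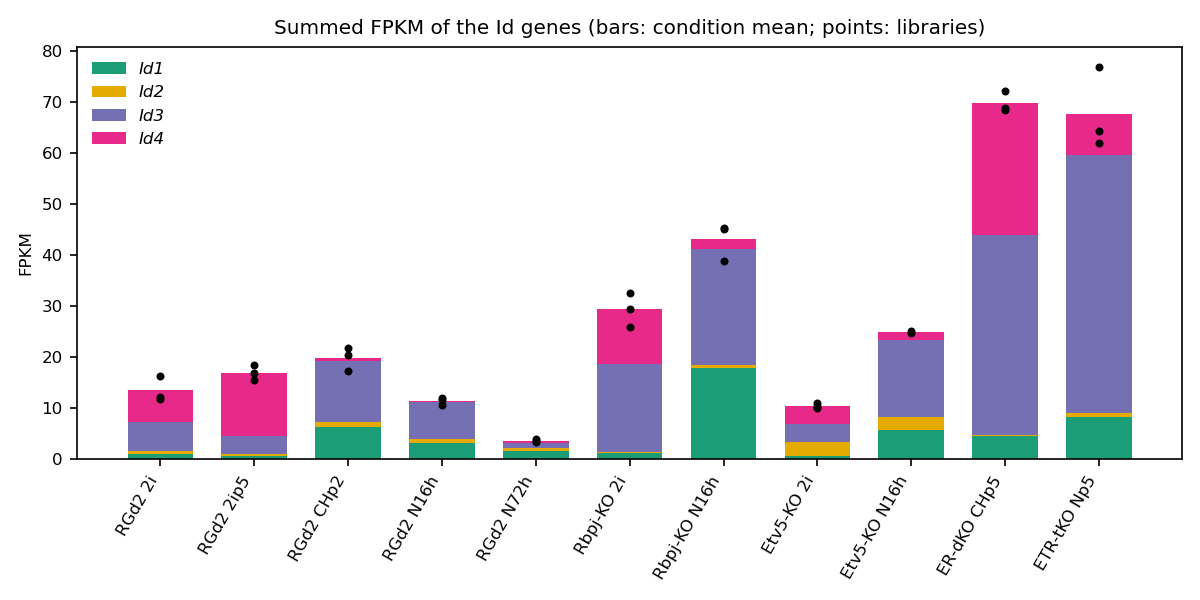
Summed FPKM of the 4 Id genes in the 11 conditions. Bars stack the condition means of *Id1*, *Id2*, *Id3* and *Id4*, and points are the sums in single libraries, from 3.57 on average at N72h to 69.8 in ER-dKO.

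Across conditions the mean normalised count spanned 32.8-fold for *Id1*, 16.6-fold for *Id2*, 61.3-fold for *Id3* and 103-fold for *Id4*. *Id1* was highest in *Rbpj*-KO at N16h (542 ± 73.5, SD, n = 3), followed by ETR-tKO (251 ± 77.4), *Etv5*-KO at N16h (184 ± 18.9, n = 2) and CHp2 (180 ± 15.3), whose neighbouring ranges overlap. Its lowest means, from N72h (42.0) through *Rbpj*-KO in 2i, RGd2 in 2i and *Etv5*-KO in 2i to 2ip5 (16.5), also overlap from each condition to the next. *Id2* stood at 172 ± 2.04 in *Etv5*-KO at N16h (n = 2) and 163 ± 7.03 in 2i (n = 3), above all other conditions, which ran from 60.8 ± 27.3 in CHp2 to 10.3 ± 0.873 in ER-dKO. *Id3* ran from 2405 ± 200 in ETR-tKO and 1904 ± 67.5 in ER-dKO to 39.2 ± 4.92 at N72h, and *Id4* from 1168 ± 91.1 in ER-dKO to 11.3 ± 5.05 in RGd2 at N16h. The 3 lowest conditions of *Id4*, CHp2, N72h and N16h in RGd2, overlap from each to the next. Over the 11 condition means of log2(normalised count + 1), Pearson's r was 0.67 between *Id1* and *Id3*, 0.45 between *Id3* and *Id4*, and between 0.05 and -0.42 for the other pairs, a description of 11 points that share libraries and scaling.

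**Figure D2:**
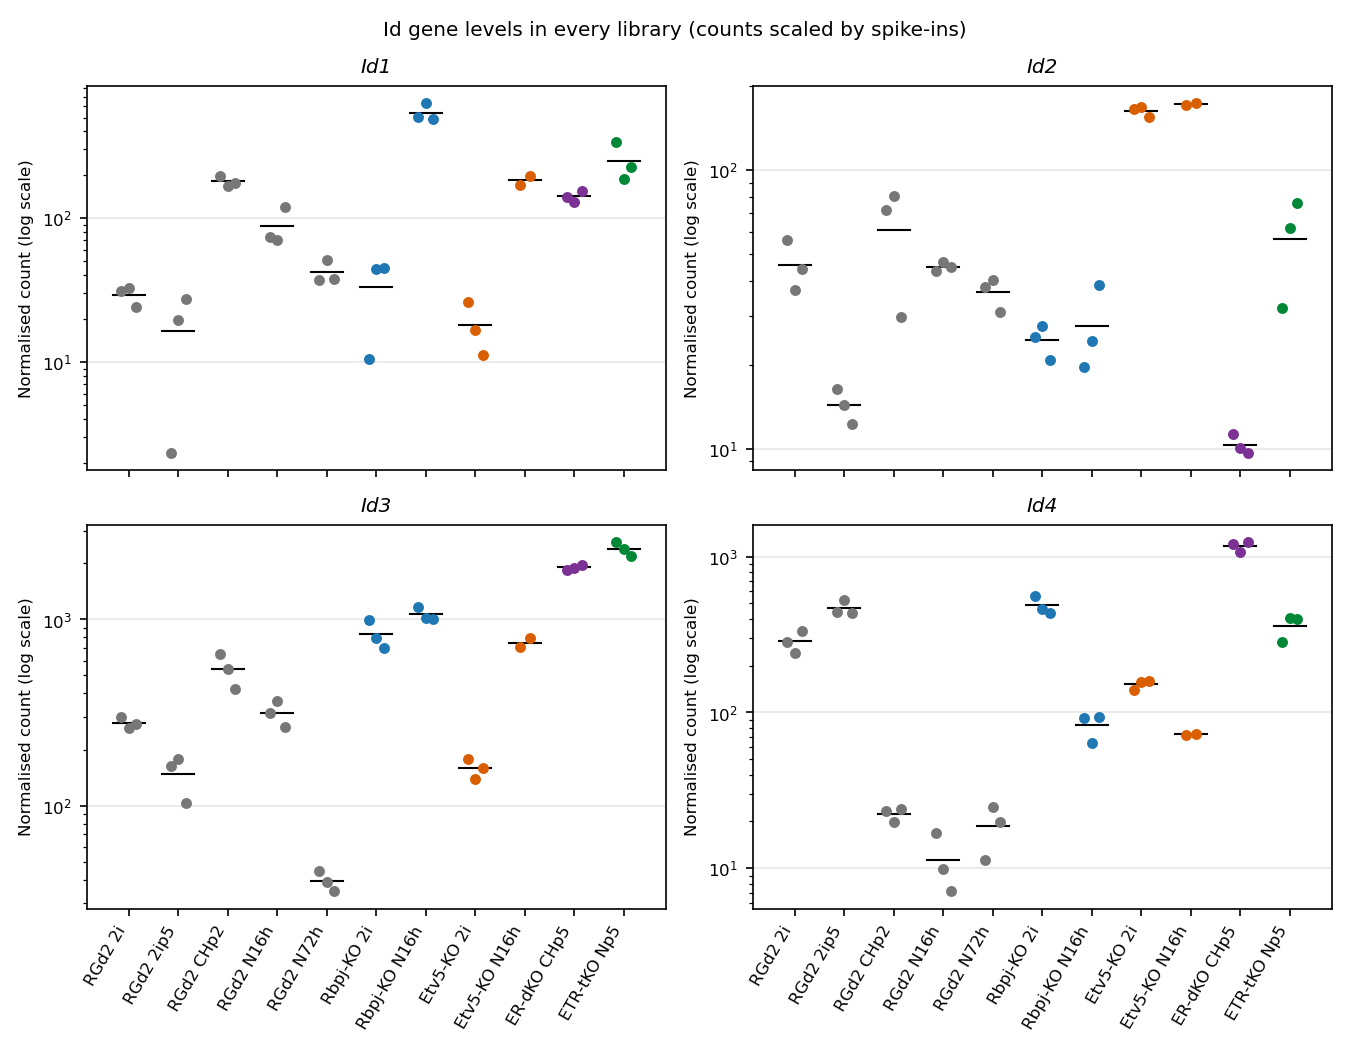
Normalised count of each Id gene in every library, on a log axis, by condition. Points are libraries and horizontal lines condition means. *Id2* in the 5 *Etv5*-KO libraries lies above all others, and *Id4* in RGd2 at N16h is the lowest of its panel.

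The first comparisons asked how RGd2 cells changed when inhibitors were withdrawn. At N16h *Id1* was higher and *Id4* lower than in 2i, while *Id2* and *Id3* did not pass. A gene was called where edgeR's adjusted p was under 0.05 and its mean reached 1 FPKM in either group, so 1 of the 4 Id genes was called higher and 1 lower, where 8.63% and 37.4% of the 11748 genes at that level were (1014 higher and 4388 lower, or 2431 and 3036 with TMM normalization, which scales on genes rather than spike-ins). Counts of Id genes are out of all 4, while shares are over genes at that level. Here 3 of the 4 reached it, and from 2 to 4 did so depending on the comparison. *Id4* had normalised counts of 241, 283 and 333 in 2i and of 7.12, 9.86 and 16.9 at N16h. The groups were far apart, and *Id4* was 24.1-fold lower (log2 fold change -4.59, standard error 0.23, adjusted p = 2.30e-19), where the median over all genes was -0.23. The N16h libraries held between 7 and 23 raw *Id4* counts. *Id1* had 24.1, 31.2 and 32.7 in 2i and 70.6, 73.5 and 119 at N16h, so that the lowest N16h library was above the highest in 2i (log2 fold change 1.48, standard error 0.32, adjusted p = 0.000287). *Id2* stood between 37.2 and 56.1 in 2i and between 43.4 and 46.7 at N16h (log2 fold change -0.03, 95% interval -0.62 to 0.56). *Id3* stood between 260 and 299, and between 263 and 364 (log2 fold change 0.18, 95% interval -0.14 to 0.50). Relative to the median of all genes *Id3* was higher, and with TMM normalization it was called (log2 fold change 0.40, adjusted p = 0.0349). As these are bulk samples, fewer cells with a transcript and less of it per cell cannot be told apart. Markers moved in the same comparison: the summed level of 6 neural markers was 48.1 to 57.5 FPKM in 2i and 16.6 to 20.8 at N16h, and that of 6 mesoderm markers 8.16 to 9.82 and 1.95 to 2.68. Their part in the result was not tested.

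Between N16h and N72h *Id3* fell. Its normalised counts of 263, 312 and 364 gave way to 34.5, 38.8 and 44.3, an 8.13-fold difference (log2 fold change -3.02, standard error 0.19, adjusted p = 1.18e-16), with the all-gene median at 0.01. *Id1* was also lower, at 37.1, 37.5 and 51.2 (log2 fold change -1.07, standard error 0.30, adjusted p = 0.00237). These were 2 of 4 Id genes called lower, and the only 2 at the minimum level, where 29.6% of the 12280 genes at that level were called lower. *Id4* stayed low, at 11.3 to 24.8 (log2 fold change 0.67, adjusted p = 0.0630), and *Id2* stood between 30.9 and 40.4 (log2 fold change -0.33, adjusted p = 0.353). At N72h the 6 trophoblast markers summed to 169 to 180 FPKM, a sum carried by the keratins *Krt8* (log2 fold change 4.58) and *Krt18* (5.07), while *Tfap2c* was lower (-0.83) and *Elf5* at 0. The 6 neural markers summed to 77.3 to 92.5, with 2 called higher and 2 lower, and the 7 primitive endoderm markers to 5.35 to 15.9. At N16h the sums were 6.64 to 7.74, 16.6 to 20.8 and 0.708 to 2.27. Their part was not tested.

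The next comparison asked what the GSK3 inhibitor alone did. In CHp2 *Id1* and *Id3* were higher and *Id4* lower than in 2ip5, 2 of 4 Id genes against 28.6% of 12054 genes and 1 of 4 against 13.6% (3450 higher and 1635 lower, or 2686 and 3517 with TMM normalization). The all-gene median was 0.17. *Id1* had normalised counts of 2.34, 19.6 and 27.6 in 2ip5 and of 167, 176 and 197 in CHp2, 9.33-fold higher (log2 fold change 3.22, standard error 0.35, adjusted p = 6.40e-10). The low 2ip5 library held a single *Id1* count, and without it the log2 fold change was 2.90. *Id3* had 103, 164 and 178, and 422, 541 and 656 (log2 fold change 1.89, standard error 0.17, adjusted p = 7.64e-12). *Id4* turned the other way, from 436, 443 and 529 to 19.9, 23.3 and 24.1, 21.1-fold lower (log2 fold change -4.40, standard error 0.23, adjusted p = 1.89e-18). *Id2* had 12.3, 14.4 and 16.4, and 29.7, 71.9 and 80.9 (log2 fold change 2.14, adjusted p = 6.34e-06), but its mean in CHp2, 0.997 FPKM, missed the minimum, which it reached without the clonal CHp2 library at 29.7 (log2 fold change 2.45). The 6 mesoderm markers summed to 70.2 to 73.9 FPKM in CHp2 and 8.47 to 9.52 in 2ip5, and the 6 trophoblast markers to 102 to 146 and 23.7 to 29.4. Only 2 of the mesoderm markers reached the minimum level, and 1 was called higher in CHp2. Of the trophoblast markers 4 reached it and 3 were called higher. None of either list was called lower. Their part was not tested.

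The genes also separated between RGd2 in 2i and in 2ip5. Cells of the 2i group had come from the GSK3 inhibitor with LIF, so time in 2i and earlier culture cannot be told apart. In 2ip5 compared with 2i, *Id3* was lower (log2 fold change -0.94, standard error 0.18, adjusted p = 9.07e-05) and *Id4* higher (0.75, standard error 0.17, adjusted p = 0.000636), 1 of 4 against 49.4% of 11552 genes and 1 of 4 against 2.89% (5709 lower and 334 higher, or 1410 and 1577 with TMM normalization). The all-gene median was -0.37 on the spike-in scale, and with TMM normalization *Id3* and *Id4* kept their direction and call. *Id2* was lower without reaching 1 FPKM (log2 fold change -1.71, adjusted p = 0.000373). At N72h compared with 2ip5, *Id4* was 25.4-fold lower (log2 fold change -4.67, adjusted p = 9.76e-21) and *Id3* 3.75-fold lower (-1.91, adjusted p = 5.12e-10). *Id1* was higher (1.10, adjusted p = 0.0171), but this call was lost without the 2ip5 library with a single *Id1* count (0.77, adjusted p = 0.0914), without the parental N72h library at 51.2 normalised counts (0.96, adjusted p = 0.0573) and with TMM normalization (0.95, adjusted p = 0.0504). Of 4 Id genes 1 was called higher and 2 lower, against 34.2% and 22.9% of 12247 genes (4189 and 2802, or 3730 and 4275 with TMM normalization). The 6 neural markers summed to 23.4 to 25.8 FPKM in 2ip5, with *Neurog2* at 0, and to 48.1 to 57.5 in 2i and 77.3 to 92.5 at N72h. The 6 trophoblast markers summed to 23.7 to 29.4 in 2ip5, 14.9 to 20.7 in 2i and 169 to 180 at N72h. Of these, 1 was called higher and 1 lower in 2ip5 than in 2i, and 2 higher and 2 lower at N72h than in 2ip5. Their part in these differences was not tested.

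Loss of *Rbpj* was compared with RGd2 at both times, and *Id2* stood apart from the other Id genes. *Id2* had normalised counts of 20.9, 25.1 and 27.6 in *Rbpj*-KO in 2i and of 37.2, 44.1 and 56.1 in RGd2, below RGd2 in every library, but did not pass (log2 fold change -0.91, 95% interval -1.57 to -0.26, adjusted p = 0.0676). At N16h its values of 19.7, 24.4 and 38.7 lay below the RGd2 range of 43.4 to 46.7 and again did not pass (-0.72, 95% interval -1.34 to -0.10, adjusted p = 0.102). *Id2* stayed under 1 FPKM in these 4 groups.

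*Id3* was higher in *Rbpj*-KO at both times, with 703, 790 and 998 normalised counts in 2i and 1008, 1013 and 1173 at N16h. *Id4* had 434, 464 and 558 in 2i, above the highest RGd2 library, and 63.8, 91.7 and 92.9 at N16h, where RGd2 did not exceed 16.9. *Id1* split by time. In 2i its values of 10.5, 44.5 and 45.1 straddled RGd2 (log2 fold change 0.26, 95% interval -0.46 to 0.98, adjusted p = 0.742), and at N16h they were 492, 508 and 626, 6.27-fold higher than in RGd2. In 2i 2 of 4 Id genes were called higher, against 5.24% of 11546 genes called higher, and at N16h 3 of 4, against 18.8% of 11717. At each time 3 of the 4 reached the minimum level. TMM normalization gave 1258 genes higher and 870 lower in 2i, in place of 605 and 707, and 1730 and 1262 at N16h, in place of 2205 and 400. The all-gene medians were -0.06 and 0.15. Among called-higher genes ranked by log2 fold change, *Id4* was number 28 and *Id1* number 36 at N16h. The 7 primitive endoderm markers summed to 1.36 to 10.3 FPKM in *Rbpj*-KO at N16h and to 0.708 to 2.27 in RGd2. In the mutant 2 of 7 had a mean of 1 FPKM or more and 1 was called higher, and *Dab2* ran from 0.263 to 2.59 FPKM between clones. In 2i the sums were 0.752 to 8.20 in *Rbpj*-KO and 0.547 to 2.56 in RGd2. The 6 neural markers summed to 31.6 to 32.5 FPKM in *Rbpj*-KO at N16h and to 16.6 to 20.8 in RGd2, with *Neurog2* at 0 in both groups. Of the 4 neural markers at the minimum level at N16h, 3 were called higher and none lower. In 2i the 6 neural markers summed to 35.2 to 36.5 in *Rbpj*-KO and 48.1 to 57.5 in RGd2, and the 6 mesoderm markers to 12.1 to 15.9 and 8.16 to 9.82. In each of these 2 lists 1 marker was called higher and 1 lower in 2i. The 6 trophoblast markers summed to 19.0 to 26.2 FPKM in *Rbpj*-KO at N16h and 6.64 to 7.74 in RGd2, with 2 of 6 called higher, and to 23.5 to 31.1 and 14.9 to 20.7 in 2i, also with 2 of 6 called higher. Their part was not tested, and leaving out any 1 library of these groups left the log2 fold change at N16h between 2.51 and 2.91 for *Id1*, 1.65 and 1.89 for *Id3*, and 2.68 and 3.21 for *Id4*.

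Loss of *Etv5* gave a different pattern in 2i. *Id2* was higher, while *Id3* and *Id4* were lower, so 1 of 4 Id genes was called higher and 2 lower, against 6.14% and 27.9% of 11569 genes (710 higher and 3227 lower, or 2097 and 1687 with TMM normalization). *Id2* had 155, 166 and 169 normalised counts in *Etv5*-KO, all above the highest RGd2 library at 56.1. This was 3.55-fold (log2 fold change 1.83, standard error 0.28, adjusted p = 2.79e-06). *Id3* had 139, 160 and 179, below the RGd2 range of 260 to 299 (log2 fold change -0.80, standard error 0.16, adjusted p = 0.000252). *Id4* had 140, 156 and 160, below 241 to 333 (log2 fold change -0.88, standard error 0.17, adjusted p = 0.000135). The all-gene median was -0.23, and the 3 calls and their directions held with TMM normalization. *Id1* had 11.3, 16.8 and 26.3, overlapping RGd2, and did not pass (-0.77, adjusted p = 0.120).

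At N16h all 4 Id genes were higher in *Etv5*-KO than in RGd2, against 29.3% of 11735 genes called higher (3437 higher and 380 lower, or 1943 and 1438 with TMM normalization). *Id4* had 72.1 and 72.8 normalised counts, where RGd2 had at most 16.9, a 6.26-fold difference (log2 fold change 2.65, standard error 0.26, adjusted p = 2.70e-10). *Id2* had 171 and 174, against 43.4 to 46.7 (1.93, standard error 0.28, adjusted p = 1.36e-06). *Id3* had 708 and 795, against 263 to 364 (1.25, standard error 0.16, adjusted p = 1.18e-07). *Id1* had 171 and 197, above the RGd2 maximum of 119 (1.09, standard error 0.28, adjusted p = 0.00346), but this call was lost without the *Etv5*-KO clone c1 library (0.99, adjusted p = 0.0603). The all-gene median was 0.24, and with TMM normalization the 4 calls remained. In *Etv5*-KO in 2i the 6 neural markers summed to 24.5 to 27.3 FPKM and the 6 mesoderm markers to 4.01 to 4.37, both under the RGd2 values above, and at N16h the 6 trophoblast markers summed to 19.7 to 21.1 FPKM, against 6.64 to 7.74 in RGd2. Their part was not tested. The comparisons of *Rbpj*-KO and of *Etv5*-KO share their RGd2 libraries.

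**Figure D3:**
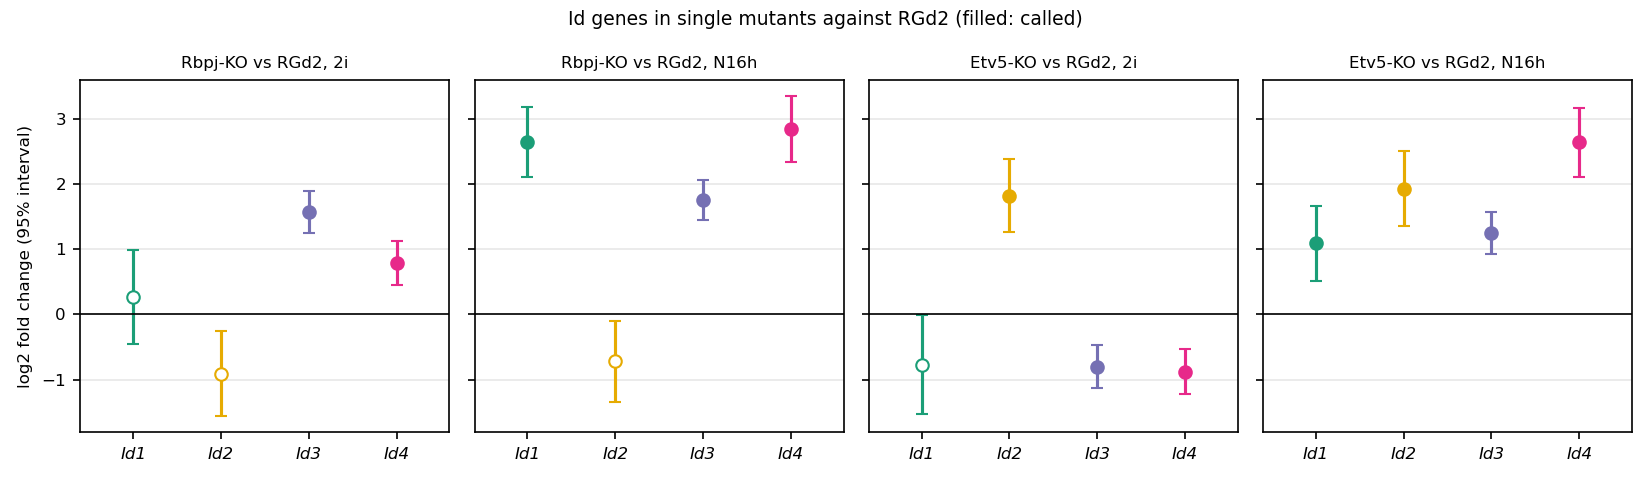
Log2 fold change of each Id gene in *Rbpj*-KO and *Etv5*-KO against RGd2, in 2i and at N16h, from edgeR with 95% intervals. Filled points were called. *Id2* is at 1.83 and 1.93 in *Etv5*-KO and at -0.91 and -0.72, not called, in *Rbpj*-KO.

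A direct comparison of the mutants, in which no RGd2 library enters the contrast, put *Id2* lower in *Rbpj*-KO than in *Etv5*-KO by 6.67-fold in 2i (log2 fold change -2.74, standard error 0.29, adjusted p = 1.98e-09) and by 6.29-fold at N16h (-2.65, standard error 0.31, adjusted p = 2.63e-08). It was number 20 in 2i and number 29 at N16h among the genes called lower, ranked by log2 fold change. *Id3* was 5.16-fold and *Id4* 3.17-fold higher in *Rbpj*-KO in 2i (adjusted p = 7.58e-15 and 3.27e-10). At N16h the *Id4* levels, 63.8 to 92.9 and 72.1 to 72.8, overlapped (log2 fold change 0.20, 95% interval -0.24 to 0.64), and *Id1* was 2.94-fold higher in *Rbpj*-KO (adjusted p = 0.000105). *Id3* differed by 1.42-fold (adjusted p = 0.0308), a call lost without either *Etv5*-KO library (adjusted p = 0.255 without c17 and 0.102 without c1) or the *Rbpj*-KO c28 library (0.127). *Id1* was called higher in *Rbpj*-KO in 2i (log2 fold change 1.03, adjusted p = 0.0321) although the ranges overlap, and lost the call with TMM normalization (adjusted p = 0.0841) and without any of 4 libraries (adjusted p from 0.0832 to 0.197). In 2i 3 of 4 Id genes were called higher and 1 lower, against 20.8% and 5.46% of 11499 genes (2396 and 628, or 1703 and 1733 with TMM normalization). At N16h 2 of 4 were called higher and 1 lower, against 5.56% and 12.4% of 11826 genes (657 and 1464, or 1469 and 1556 with TMM normalization).

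The response to inhibitor withdrawal was then compared between genotypes. *Id1* was higher and *Id4* lower at N16h than in 2i in RGd2 and in both mutants, but by different amounts. The log2 fold change of *Id1* was 3.87 (standard error 0.30) in *Rbpj*-KO and 3.34 (standard error 0.32) in *Etv5*-KO, where RGd2 had 1.48. That of *Id4* was -2.53 (standard error 0.18) and -1.07 (standard error 0.20), where RGd2 had -4.59. *Id3* was called higher in *Etv5*-KO, at 2.23 (standard error 0.17, adjusted p = 4.10e-14). In *Rbpj*-KO *Id3* was at 0.37 (adjusted p = 0.0623), which was not called. It passed with the clone as replicate block (0.37, adjusted p = 0.00285), and also without the block in a fit of only these groups (0.38, adjusted p = 0.0208), with TMM normalization (0.38, adjusted p = 0.0283), with gene-count or total spike-in scaling, with no low-count filter and without the clone c28 library in 2i. *Id2* did not differ beyond its error in any of the 3 genotypes, with 95% intervals of -0.62 to 0.56 in RGd2, -0.52 to 0.85 in *Rbpj*-KO and -0.47 to 0.63 in *Etv5*-KO. In *Rbpj*-KO 1 of 4 Id genes was called higher and 1 lower, against 11.6% and 16.3% of 11776 genes. In *Etv5*-KO 2 of 4 were called higher and 1 lower, against 31.3% and 9.47% of 11832 (3698 and 1120, or 2363 and 2949 with TMM normalization).

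The difference between responses was tested itself. For *Rbpj* it was 2.39 for *Id1* (log2 scale, standard error 0.44, adjusted p = 0.000725) and 2.06 for *Id4* (standard error 0.31, adjusted p = 2.69e-05), 2 of 4 Id genes against 3.79% of 12162 genes (461 higher and 29 lower, or 313 and 144 with TMM normalization). *Id2* (0.19, 95% interval -0.71 to 1.10) and *Id3* (0.19, 95% interval -0.25 to 0.63) did not pass. For *Etv5* it was 3.52 for *Id4* (standard error 0.31, adjusted p = 5.35e-11), 2.05 for *Id3* (standard error 0.23, adjusted p = 1.23e-08) and 1.86 for *Id1* (standard error 0.47, adjusted p = 0.00315), 3 of 4 against 36.7% of 12246 genes (4499 higher and 65 lower, or 1044 and 559 with TMM normalization). The all-gene median of the *Etv5* difference was 0.47, and *Id1* lost its call with TMM normalization (1.39, adjusted p = 0.0720). *Id2* did not pass (0.11, 95% interval -0.70 to 0.91).

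**Figure D4:**
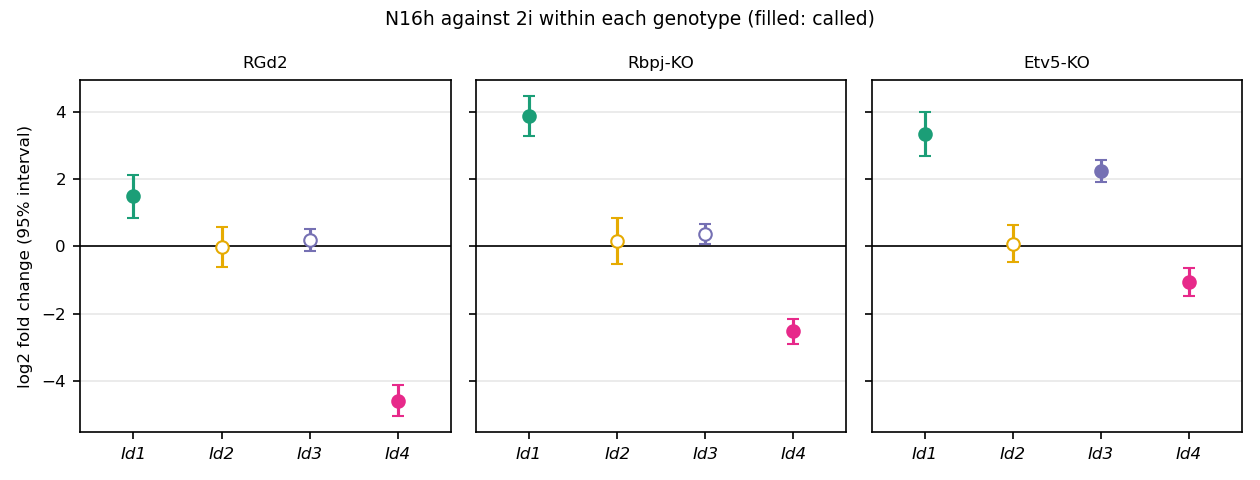
Log2 fold change of each Id gene at N16h against 2i within RGd2, *Rbpj*-KO and *Etv5*-KO, from edgeR with 95% intervals. Filled points were called. *Id1* lies above 0 and *Id4* below 0 in all 3 genotypes, and *Id4* runs from -4.59 in RGd2 to -1.07 in *Etv5*-KO.

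ER-dKO and ETR-tKO, both grown without the MEK inhibitor, held the highest *Id3* levels of the series. *Id3* had normalised counts of 1838, 1901 and 1973 in ER-dKO and 2205, 2405 and 2606 in ETR-tKO, where 2ip5 had at most 178. The difference from 2ip5 was 13.1-fold in ER-dKO (log2 fold change 3.71, standard error 0.17, adjusted p = 4.45e-20) and 16.5-fold in ETR-tKO (4.05, standard error 0.17, adjusted p = 1.88e-21). *Id1* had 130, 141 and 155 in ER-dKO and 187, 228 and 337 in ETR-tKO, 7.37-fold and 13.1-fold above 2ip5 (adjusted p = 9.76e-09 and 8.54e-12). Without the 2ip5 library with a single *Id1* count these log2 fold changes of 2.88 and 3.71 became 2.56 and 3.39. The 6 neural markers summed to 67.5 to 70.7 FPKM in ETR-tKO, with *Neurog2* at 0, 21.9 to 24.4 in ER-dKO and 23.4 to 25.8 in 2ip5. The 6 mesoderm markers summed to 14.7 to 16.3 in ER-dKO, 6.56 to 11.4 in ETR-tKO and 8.47 to 9.52 in 2ip5, and the 6 trophoblast markers to 25.1 to 27.1, 29.7 to 40.1 and 23.7 to 29.4. Against 2ip5, ETR-tKO had 3 neural markers called higher and none lower. It had 1 mesoderm marker called higher and 1 lower, and 3 trophoblast markers higher and 1 lower. ER-dKO had 1 neural, 1 mesoderm and 2 trophoblast markers called higher than in 2ip5, and none lower. Their part was not tested.

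*Id4* separated the mutants. ER-dKO had 1065, 1200 and 1238, above 2ip5 (log2 fold change 1.31, standard error 0.16, adjusted p = 1.69e-08), and ETR-tKO had 282, 396 and 405, each below every 2ip5 library, without passing (-0.38, adjusted p = 0.0546). The all-gene median for ETR-tKO was 0.27, and with TMM normalization *Id4* was called lower (-0.63, adjusted p = 0.00101). Compared with each other, *Id4* was 3.24-fold lower in ETR-tKO (log2 fold change -1.70, standard error 0.16, adjusted p = 3.97e-11). *Id1* was higher there (0.83, adjusted p = 0.0117), a call lost without ER-dKO clone ERc7 (0.77, adjusted p = 0.0607) or ETR-tKO clone (ETc1)Rc53 (0.56, adjusted p = 0.148). *Id3* did not pass (0.34, adjusted p = 0.0829). *Id2* had 9.66, 10.04 and 11.3 in ER-dKO and 32.0, 62.0 and 76.0 in ETR-tKO (2.42, adjusted p = 7.87e-08), under 1 FPKM on average in both groups, though without the ETR-tKO clone (ETc1)Rc53 *Id2* reached the minimum and was called higher than in ER-dKO (2.73), 2ip5 (2.30) and N72h (0.95). Cultures differed as well as genotypes. Against 2ip5, whose libraries both mutants share, 3 of 4 Id genes were called higher in ER-dKO, beside 33.9% of 11562 genes (3922 higher and 975 lower, or 2580 and 2314 with TMM normalization), and 2 of 4 in ETR-tKO, beside 37.7% of 11814 (4459 and 1126, or 2794 and 3089). Between the mutants 1 of 4 was called higher in ETR-tKO and 1 lower, beside 14.6% and 9.90% of 11632 genes (1700 and 1151, or 1912 and 2407).

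Against RGd2 in the GSK3 inhibitor alone, at 2 rather than 5 passages, ER-dKO had 52.5-fold more *Id4* (log2 fold change 5.71, standard error 0.23, adjusted p = 2.67e-22) and 3.54-fold more *Id3* (1.82, adjusted p = 3.68e-13), while *Id1* did not pass (-0.34, 95% interval -0.87 to 0.19). *Id2* went the other way, with every ER-dKO library below every CHp2 library (-2.57, adjusted p = 1.86e-08), but missed the FPKM minimum, which it reached without the clonal CHp2 library, where it was called lower (-2.87). *Id4* was number 17 among the genes called higher. Against RGd2 at N72h, also without inhibitors, ETR-tKO had 62.0-fold more *Id3* (5.96, standard error 0.19, adjusted p = 8.27e-26), 19.5-fold more *Id4* (4.28, standard error 0.22) and 6.14-fold more *Id1* (2.62, standard error 0.29). *Id2* did not pass (0.64, adjusted p = 0.0603). Called higher were 2 of 4 Id genes in ER-dKO, beside 28.3% of 12083 genes, and 3 of 4 in ETR-tKO, beside 35.5% of 12338. Against 70.2 to 73.9 FPKM in CHp2, the 6 mesoderm markers summed to 14.7 to 16.3 in ER-dKO, with 1 called higher and 1 lower. The 6 trophoblast markers, of which 4 were called lower, summed to 25.1 to 27.1 against 102 to 146. In ETR-tKO the trophoblast sum was 29.7 to 40.1 where N72h had 169 to 180, with 1 marker called higher and 2 lower, and 3 of 7 primitive endoderm markers were called lower. Their part was not tested.

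The E proteins with which Id proteins pair moved far less. *Tcf3* (E2A) was the most abundant, at 25.6 to 51.1 FPKM over the condition means, followed by *Tcf12* (HEB) at 3.79 to 10.001 and *Tcf4* (E2-2) at 1.29 to 2.99. *Tcf12* was highest in ETR-tKO, at 4150 ± 309 normalised counts and 1703 ± 106 in 2ip5 (log2 fold change 1.29, adjusted p = 1.01e-12). In *Rbpj*-KO *Tcf3* was lower in 2i (-0.41, adjusted p = 0.0478) and *Tcf12* higher at N16h (0.44, adjusted p = 0.00227), 1 of 3 each time, where 6.12% and 18.8% of all genes at the minimum level were called in that direction. In *Etv5*-KO in 2i *Tcf3* (-0.66) and *Tcf4* (-0.64) were lower and *Tcf12* higher (0.51), beside 27.9% and 6.14% of all genes, and at N16h *Tcf12* was higher (0.71, adjusted p = 1.04e-05), 1 of 3 beside 29.3%.

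*Tcf15*, a bHLH factor expressed in ESCs as they leave the naive state and a known partner of E proteins held in check by ID1, had the widest range of these. It stood at 167 ± 27.9 normalised counts in RGd2 in 2i and 923 ± 57.6 at N16h (log2 fold change 2.52, adjusted p = 8.23e-15), and at 135 ± 16.1 at N72h. In *Etv5*-KO in 2i it was 10.5 ± 4.31 (log2 fold change -3.89, standard error 0.25, adjusted p = 1.80e-15) and at N16h 392 ± 81.7 (n = 2, -1.24, adjusted p = 1.63e-06). In *Rbpj*-KO it was 159 ± 34.1 in 2i and 1227 ± 58.3 at N16h and did not pass (at N16h 0.41, adjusted p = 0.0624). CHp2 had 723 ± 83.9, against 88.2 ± 29.0 in 2ip5 (3.05, adjusted p = 3.02e-16).

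**Figure D5:**
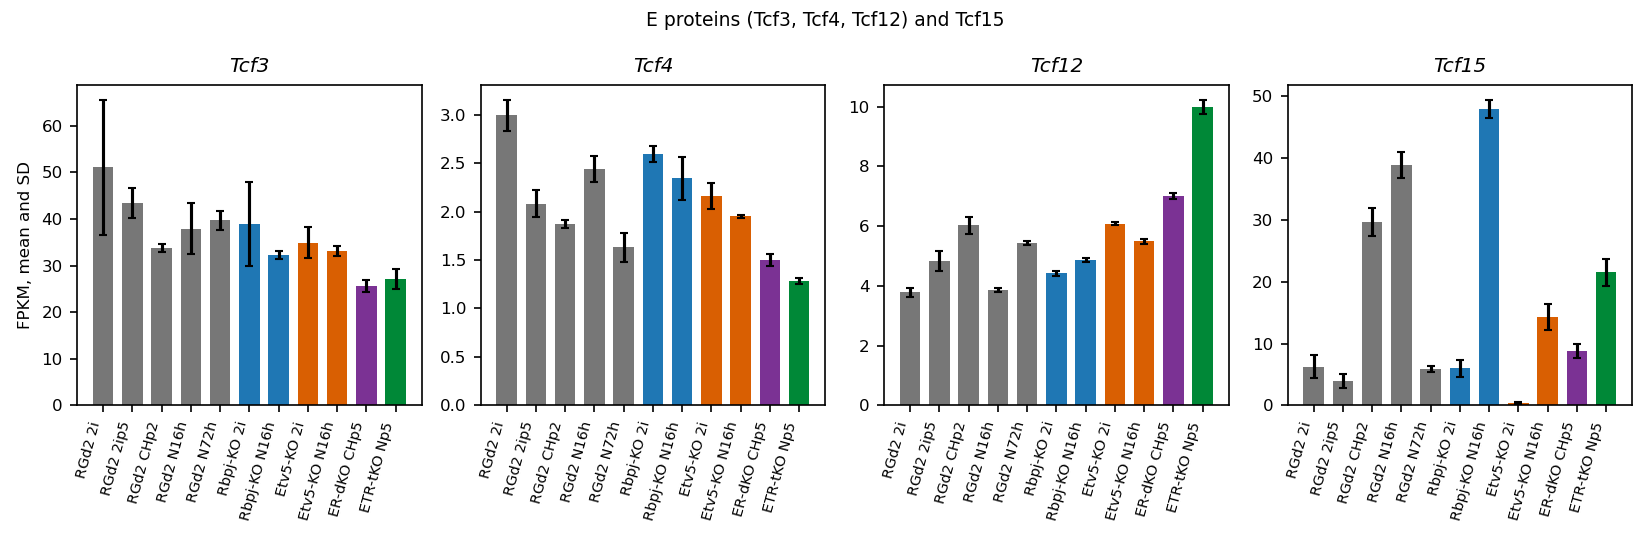
Mean FPKM of the E proteins *Tcf3*, *Tcf4* and *Tcf12* and of *Tcf15* in the 11 conditions, with SD over libraries. Condition means of *Tcf15* run from 0.427 in *Etv5*-KO in 2i to 47.9 in *Rbpj*-KO at N16h.

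The BMP pathway was read from lists of ligands, receptors, SMADs, inhibitors and further targets, of which 11, 9, 4, 17 and 11 genes were listed. Beside these counts stand the shares of all genes at the minimum level, in *Rbpj*-KO 5.24% higher and 6.12% lower in 2i and 18.8% and 3.41% at N16h. In the order of the lists, 3, 7, 3, 10 and 4 genes reached this level in 2i, and 2, 7, 3, 10 and 3 at N16h. In *Rbpj*-KO in 2i, none of 9 receptors and none of 4 SMADs passed, and among ligands *Bmp7* was lower (log2 fold change -0.86, adjusted p = 0.00219). Of the inhibitors, *Fst*, an activin and BMP antagonist, was higher (1.87), while *Smad6*, an inhibitory SMAD and itself a BMP target, and *Ski*, a SMAD corepressor, were lower (-1.14 and -0.49). At N16h 2 of 11 ligands were higher, *Bmp8a* (1.22) and *Bmp4* (1.02), as were 3 of 9 receptors, *Eng* (0.75), *Acvr1* (0.73) and *Acvr2b* (0.34, lost with TMM normalization), and *Smad5* (0.35) among the SMADs. Of 11 targets other than Id genes, *Smad7* (0.99) and *Bambi* (0.54), both feedback inhibitors, were higher. Of 17 inhibitors 4 were higher, *Fst* (1.67), *Smad7*, *Fstl1* (0.73) and *Bambi*, and *Skil*, another SMAD corepressor, was lower (-0.52). List medians there were 0.89 for tested ligands, 0.30 for receptors and 0.54 for targets, beside 0.15 over all genes tested.

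In *Etv5*-KO in 2i *Bmp4* was lower, at 32.3 normalised counts against 178 in RGd2 (log2 fold change -2.49, standard error 0.21, adjusted p = 3.13e-12), 1 of 11 ligands. The receptors *Eng* (-0.82) and *Acvr2b* (-0.49) were lower, as were *Smad1* (-0.39) and *Smad4* (-0.28), which lost their calls with TMM normalization. Of 17 inhibitors, 10 of them at the minimum level, 5 were lower and none higher, where 27.9% of all genes were called lower, led by *Fstl1* (-1.24), *Skil* (-1.19), *Ski* (-0.95) and *Smad6* (-0.91). Of 11 targets 2 were lower, *Smad6* and *Smad7* (-0.55, lost with TMM normalization). At the minimum level were 2 of the ligands, 7 of the receptors, 3 of the SMADs and 4 of the targets. At N16h the ligands *Bmp7* (1.37), *Bmp8a* (1.28) and *Bmp4* (0.63, lost with TMM normalization) were higher, 3 of 11. *Eng* was higher (0.63), 1 of 9 receptors, and no SMAD passed. Of 11 targets 3 were higher, *Smad6* (0.98), *Smad7* (0.79) and *Bambi* (0.43), the last pair lost with TMM normalization. Of 17 inhibitors 6 were higher, led by *Fst* (1.98) and *Smad6*, and *Skil* was lower (-0.80). All these counts stand beside 29.3% of all genes called higher and 3.24% lower among genes at the minimum level, which 3 of the ligands, 11 of the inhibitors and 3 of the targets reached. List medians for tested targets were -0.43 in 2i and 0.43 at N16h, beside -0.23 and 0.24 over all genes.

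Notch targets under RBPJ repression, 12 genes in all, were read beside the Id genes. The list draws on genes that the study named from these samples, so its direction is not independent evidence. In *Rbpj*-KO 8 of 12 were higher in 2i and 9 of 12 at N16h, and none lower, beside 5.24% and 18.8% of all genes called higher. They were led at N16h by *Prickle1* (log2 fold change 5.44), *Nrarp* (4.63), *Hey1* (4.42) and *Trh* (4.36). In *Etv5*-KO 3 were higher and 5 lower in 2i, among them *Trh* (-2.06), *Cidea* (1.68), *Dtx1* (-1.52) and *Prickle1* (1.18), and 5 higher and none lower at N16h, led by *Nrp2* (2.84). Over all genes at the minimum level 6.14% were higher and 27.9% lower in 2i, and 29.3% higher at N16h. Of the 12 listed, 9 reached that level in *Rbpj*-KO against RGd2 at each time, and in *Etv5*-KO 9 in 2i and 6 at N16h. The list medians in *Rbpj*-KO were 1.76 in 2i and 4.12 at N16h.

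The genes whose condition means followed each Id gene most closely were taken from 13347 genes by Pearson's r over the 11 conditions, as a description of points that share libraries and scaling. For *Id1* they were *Spred1* (0.93), *Bbs10*, *Noct*, *Gm21989* and *Aldh2* (0.91). For *Id2* they were *Rab3b* (0.94), *Rasa3*, *Suox*, *Ggct* and *Ptgr2* (0.84). *Sox13* (0.95), *Gm13777*, *Nudt4*, *Papolg* and *Rxra* (0.94) followed *Id3*, and *Lamb2* (0.96), *Zfp59*, *Eya3*, *Ndufb9* and *Stpg1* (0.94) followed *Id4*. No Id gene was among those 5 for another.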

How the data were processed

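Libraries were made by the authors from ribosome-depleted RNA with ERCC spike-ins and sequenced in pairs, keeping the strand. After Trim Galore, TopHat2 was used for alignment to mm10 plus spike-in sequences, and featureCounts for counting unique primary matches per gene. The counts were used as deposited, without normalization by the authors. FPKM and log2 values were computed here from the deposited counts and gene lengths. Each library was scaled by its median ratio over 52 of 92 spike-ins, those above 0 in every library. After filterByExpr, 18892 genes entered edgeR 4.0.16 in R 4.3.3, with two-sided quasi-likelihood tests from 1 model of 32 libraries and 11 condition coefficients. P-values were adjusted by Benjamini-Hochberg across these genes. Genes were called where the adjusted p was under 0.05 and the mean reached 1 FPKM in either group, or in any of 4 groups for differences between responses. Intervals are 95%. All 4 Id genes passed the filter. On simulated counts of *Rbpj*-KO and RGd2 at N16h, run on 17861 genes, 95 of 100 genes changed by 1 on the log2 scale and 100 of 100 changed by 2 were recovered. The changed genes were drawn from those above a minimum mean count, and each had the same mean in all other conditions. Recovery of genes at low counts was therefore not measured.

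The alternatives were TMM, gene-count size factors, total spike-in count, DESeq2 1.42.0, other filters, only the groups compared, the line as replicate block, and leaving out each library. Between replicates chi-square per gene was 3.39 to 44.3, where counting noise gives about 1. The clones of *Rbpj*-KO pair the 2i and N16h libraries: deviations from the group means correlated at 0.110, 0.114 and 0.244 over 11986 genes. For *Etv5*-KO the 2 pairs gave 0.116 and 0.0146.

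The members and gene lists were chosen with earlier results of these data known. Named are the Id genes, the E proteins and *Tcf15* throughout, the targeted genes, and of each other list up to 4 called genes with the largest absolute log2 fold change in each comparison described, with a few more where an alternative bears on them. Gene IDs without a symbol numbered 193 and held 0.0259% of counts. The paper's methods and the labels differ on which N16h group has 2 libraries, and the labels were followed. Motifs were searched with Python 3.11.15, and figures drawn with matplotlib 3.10.9.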

Additional observations from a re-analysis of the deposited data

Results flagged for a closer look

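The difference between the mutant's and RGd2's response to withdrawal, tested as a contrast of contrasts with edgeR, passed for 5 results, each of which marks an effect that differs between 2i and N16h. For *Rbpj* these were *Id1* (2.39 on the log2 scale) and *Id4* (2.06). For *Etv5* they were *Id4* (3.52), *Id3* (2.05) and *Id1* (1.86), where *Id3* was lower than RGd2 in 2i and higher at N16h. The all-gene median of the difference was 0.22 for *Rbpj* and 0.47 for *Etv5*. Groups of 3 libraries are too small for a test of single outlying libraries.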

How the results depend on the processing

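The number of Id genes called in either direction was within 1.5 times its reported value in 294 of 295 alternatives over 20 comparisons, and between ETR-tKO and ER-dKO it ranged from 1 to 2 with 1 library left out. With so few genes this rule passes most gains or losses of 1 call, so it says little about single calls. Between N72h and 2ip5 the number ranged from 2 to 4 over all alternatives. Over 80 gene results, 1119 of 1180 alternatives kept direction and call. Sign changes were among uncalled values near 0. For *Id2* at N16h against 2i in RGd2 (-0.03) these were 0.21 with TMM, 0.24 with gene-count size factors, and -0.21 to 0.20 with 1 library left out. In *Etv5*-KO *Id2* became -0.17 and -0.13 with those 2 scalings, and in *Rbpj*-KO it ranged from -0.16 to 0.38 with 1 library left out. For the *Rbpj* difference between responses *Id2* became -0.051 with either scaling (range -0.12 to 0.40 with 1 library left out) and *Id3* -0.020 with either. For the *Etv5* difference *Id2* became -0.37 with either scaling (-0.12 to 0.28 with 1 library left out). The cause was not tested.

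With no FPKM minimum, *Id2* was called in 6 further comparisons. With the line as replicate block, *Id3* between N16h and 2i in *Rbpj*-KO passed, and no other Id call changed. In fits of only the groups compared, 3080 rather than 5402 genes were called between N16h and 2i in RGd2, and 2155 rather than 6043 between 2ip5 and 2i. Over all genes the block moved calls in *Etv5*-KO from 5193 to 3204, between N16h and 2i, within the same libraries. *Id1* in 2i and 2ip5, *Id2* in 2ip5 (7 to 12 raw counts) and *Id4* at N16h rest on few counts, which limits their precision. The same holds for *Id4* in CHp2 (11 to 16 raw counts), the low side of its 21.1-fold and 52.5-fold differences. It also holds for *Id4* at N72h (11 to 33), the low side of its 25.4-fold and 19.5-fold differences.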

Other observations

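Of 27 tissue-specific bHLH factors that pair with E proteins, 17 were tested, and few reached 1 FPKM. *Neurog3*, which drives endocrine cell fate in the pancreas, had a mean of 89.9 normalised counts in RGd2 in 2i, 32.2 in *Etv5*-KO (log2 fold change -1.38, adjusted p = 0.00450) and 0.297 in *Rbpj*-KO, where it was called lower. *Atoh1* (1.86) and *Ascl2* (1.10) were higher in *Etv5*-KO in 2i, and *Ascl2* (2.82) at N16h. *Tal2* was lower at N16h in *Rbpj*-KO (-2.68) and in *Etv5*-KO (-2.07). Among 12 Hes and Hey repressors, *Hes6* was lower in both mutants at both times, from -0.75 in *Etv5*-KO at N16h to -1.07 in *Rbpj*-KO at N16h, while *Hes1* was higher in *Rbpj*-KO (0.96 in 2i and 2.91 at N16h) and in *Etv5*-KO at N16h (0.81). In *Etv5*-KO in 2i *Hes1* was lower (-0.46, lost with TMM normalization), as were *Hes6* and *Bhlhe40* (-1.26), while *Hey1* was higher (0.62). The comparisons of both mutants share RGd2 libraries.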
